A study of Mus musculus with 16 samples.

Results

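The regions described here are narrow H3K4me3 peaks that were found in the testis of B6-TgWT mice, lay close to a peak common to all 3 mouse lines, and had no counterpart in either other line. They were chosen from the authors' peak lists as B6-TgWT peaks on chromosomes 1 to 19 that were under 2000 bp wide and shared no base with a B6 or B6-TgYF peak. The gap to the nearest shared peak, meaning a B6-TgWT peak that overlapped both a B6 and a B6-TgYF peak, had to be under 10 kb. This gave 2440 sites among the 47654 peaks of the B6-TgWT list. On the autosomes, 8930 of 46631 B6-TgWT peaks overlapped neither other list (19.2%), and 8085 of the 38671 narrow ones did so (20.9%). The 2440 sites were 30.2% of these 8085 gained narrow peaks (95% Wilson interval 29.2 to 31.2), and the other 5645 lay at 10 kb or more from a shared peak. Absence from the other lists, width and gap were the rule, so they are given as a description and no test was made on them.

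PRDM9 is a meiotic protein with a zinc finger array that binds DNA and a PR/SET domain that methylates histone H3. It trimethylates lysine 4 of H3 on nucleosomes beside its binding site, where the DNA double-strand breaks of meiotic recombination are then formed. The same mark sits at active promoters in all cells of the testis, so an H3K4me3 peak list from whole testis mixes promoters with PRDM9 sites. Zinc finger arrays differ between Prdm9 alleles, and an added allele with other zinc fingers can bring H3K4me3 to sites that the resident protein does not bind.

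The series has 16 samples: 6 H3K4me3 ChIP libraries with 3 inputs, and 7 libraries of DMC1 ChIP from adults that were not analysed here. Whole testes were taken at 13 days post-partum. The B6 group was C57BL/6JOlaHsd without a transgene, the B6-TgWT group was C57BL/6J-Tg(RP23-159N6*)43Bdm and the B6-TgYF group was C57BL/6JRj-Tg(RP23-159N6*)23Bdm, each with 2 ChIP libraries and 1 input. The labels of these groups name no Prdm9 knockout allele, so the transgene is taken as an addition to the resident gene. As the study is known, the transgene is a modified genomic clone carrying Prdm9 with castaneus-type zinc fingers, in an active form (WT) or with a tyrosine-to-phenylalanine change in the methyltransferase domain (YF). Each transgene is represented by 1 line on its own substrain, so transgene, line and substrain cannot be told apart. Each line had 1 peak list for both replicates, with 51176 peaks in B6 and 42501 in B6-TgYF, so there is no replicate spread to compare any value with. In the file name of the B6 list stands d12, whereas its labels give 13 days. Read depth is unknown, since the lists hold no read counts. In whole tissue, a mark in fewer cells and a weaker mark per cell cannot be told apart. The tissue label was not checked against marker genes, because no annotation of the build of the lists, mm9, was used here.

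The sites were weak to moderate H3K4me3 peaks. The deposited fold enrichment, the caller's ratio of ChIP signal to background at a peak, had a median of 4.98 (95% binomial interval of the median 4.90 to 5.08) and ran from 1.96 to 19.29. Its quartiles were 4.07 and 6.54. Gained narrow peaks at 10 kb or more from shared peaks had a median of 4.97 (interval 4.90 to 5.02), with quartiles of 4.06 and 6.45. The medians differed by less than the width of either interval. Gained peaks of 2000 bp or wider had a median of 8.99, shared peaks 8.04 and all autosomal peaks of the list 6.81. The median deposited −log10 q was 24.26 at the sites and 23.62 at the gained narrow peaks farther away, with intervals of 23.44 to 25.43 and 23.22 to 24.18.

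In the stronger 50% of the B6-TgWT list, ranked by fold enrichment, were 540 of the 2440 sites (22.1%, Wilson interval 20.5 to 23.8), against 49.9% of all autosomal peaks of the list. The share was 20.4% (interval 19.3 to 21.4) among the gained narrow peaks farther away and 81.1% among the wide gained peaks. The sites thus fell below the background share, as did their distant counterparts. This comparison is not free of the rule, since the background includes wide peaks. Over all autosomal peaks, fold and width had a Spearman's rho of 0.694. A share over narrow peaks alone is not given, so no conclusion is drawn from the difference. By decile of fold enrichment, they made up 8.71% of the weakest peaks (decile 1), 7.01% in decile 6 and 3.88% in decile 7, and then only 0.663% in decile 8. A single site was in decile 9, which starts at a fold of 16.83, and decile 10 held 0. In deciles 1 to 7 there were between 0.395 and 0.494 sites for each gained narrow peak at 10 kb or more, with no order along the deciles. A fold of 10 or more was reached by 91 sites (3.73%). The same share over other peaks is not given, so nothing is read from this count. In the fold class of 10 to 10.5 lay 1.15% of the sites and 0.921% of the gained narrow peaks farther away. In the class of 10.5 to 11 these shares were 0.656% and 0.850%.

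**Figure D1:**
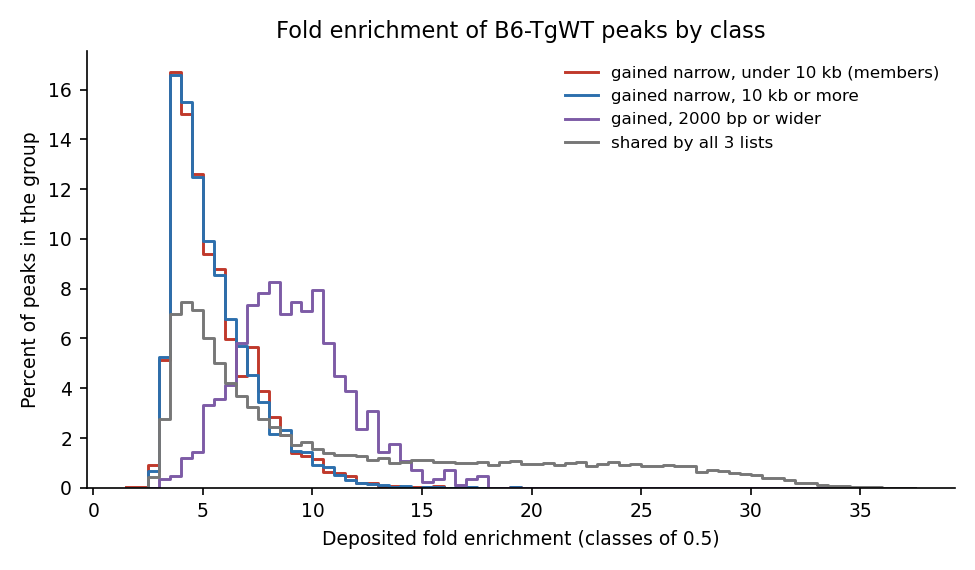
Percent of peaks (vertical axis) by deposited fold enrichment in classes of 0.5 (horizontal axis) for the 2440 sites, the 5645 gained narrow peaks at 10 kb or more, the 845 wide gained peaks and the 36255 shared peaks of the B6-TgWT list. The curves of both narrow gained groups lie over each other, with medians of 4.98 and 4.97, while the wide gained peaks centre near 8.99 and the shared peaks extend to 37.

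The strongest site lay on chromosome 2 from 110012938 to 110014650 (all coordinates mm9), was 1713 bp wide and had a fold enrichment of 19.29. Its shared neighbour, 5440 bp away, had a fold of only 3.15 in B6-TgWT, 3.08 in B6 and 3.58 in B6-TgYF. Next came a site on chromosome 4 from 43428694 to 43430674 with a fold of 15.94, 3159 bp from a shared peak of fold 4.30. An equal fold of 15.94 was listed on chromosome 14 from 71044251 to 71046003, 1844 bp from a shared peak of fold 7.93. These 3 sites, picked for their fold, were each listed with a higher fold than their shared neighbour in the same list.

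Ranks 4 to 7 were held by sites on chromosome 10 from 42041300 to 42043218 (fold 15.04), chromosome 11 from 106499929 to 106501474 (fold 14.96), chromosome 5 from 144072733 to 144074532 (fold 14.09) and chromosome 18 from 77499809 to 77500789 (fold 13.75). The chromosome 5 site differed from the first 4 ranks in its surroundings, as it lay 1126 bp from a strong shared peak with folds of 30.34 in B6-TgWT, 32.89 in B6 and 32.99 in B6-TgYF. The last 3 of the 10 strongest were on chromosome 15 from 93785568 to 93786470 (fold 13.57), chromosome 19 from 42502970 to 42504930 (fold 13.26) and chromosome 6 from 34825025 to 34826961 (fold 13.16). The chromosome 19 site was 84 bp from a shared peak that had a fold of 17.48 and was itself 2472 bp wide, and the chromosome 6 site 540 bp from a shared peak of fold 26.67. Of the 10 strongest sites, 7 thus had a weaker shared neighbour and 3 a stronger one. These sites were picked for their fold, from 13.16 up, while the median over all shared peaks was 8.04. A weaker neighbour was therefore likely by the choice, and the count says nothing about the sites as a whole.

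The median width was 1104.5 bp (interval 1079 to 1130), against 1141 bp (interval 1127 to 1156) at gained narrow peaks farther away, which had the same width limit. Stronger sites were wider, with median widths of 833 bp in the weakest decile of fold enrichment, 1284 bp in decile 5 and 1560 bp in decile 7. At 10 kb or more the medians in these deciles were 903, 1354.5 and 1614 bp. The sites were narrower than distant peaks of the same decile in each of deciles 1 to 7. In decile 8, with 30 sites, they were wider, at 1728.5 against 1612 bp. Over all deciles, the median width was 1030.5 bp at gaps under 1 kb and 1112 to 1125.5 bp at gaps of 1 to 10 kb. Whether the room beside a shared peak bears on the widths was not tested. Across the 2440 sites, Spearman's rho of fold and width was 0.521, against 0.508 across the 5645 peaks farther away. These correlations are across peaks of 1 list, whose folds and widths come from the same reads, and have no p-value.

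At the width limit, the widest sites were on chromosome 10 from 43585404 to 43587399 (1996 bp, fold 7.60), chromosome 12 from 109160365 to 109162360 (1996 bp, fold 7.36) and chromosome 2 from 165707201 to 165709195 (1995 bp, fold 7.31). Just past it were gained peaks on chromosome 9 from 21866732 to 21868732 (2001 bp, fold 9.69), chromosome 14 from 77944779 to 77946781 (2003 bp, fold 4.12) and chromosome 3 from 130267780 to 130269785 (2006 bp, fold 10.03). In all, 218 of the 845 wide gained peaks (25.8%) lay under 10 kb from a shared peak.

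The next question was whether gained sites gathered beside shared regions. Per Mb of sequence at each distance, their density stayed between 4.53 and 5.55 in the classes from 1 to 30 kb and was lower both right beside shared peaks and farther out. Gaps ran from 52 to 9997 bp with a median of 4238.5 bp, and 308 sites had a gap under 1 kb, 304 a gap of 1 to 2 kb, 793 of 2 to 5 kb and 1035 of 5 to 10 kb. Measured from peak midpoints and per Mb of sequence outside shared peaks, gained narrow peaks numbered 2.37 per Mb under 1 kb from a shared peak (95% exact Poisson interval 2.02 to 2.77). The density was 4.53 per Mb at 1 to 2 kb, 4.91 at 4 to 5 kb, 5.21 at 5 to 6 kb and 5.55 at 9 to 10 kb. From 1 to 10 kb it was 4.90 per Mb (interval 4.70 to 5.11), and from 10 to 50 kb it was 4.38 (interval 4.24 to 4.53). These 2 intervals did not overlap. Within the wider span the density was 4.57 per Mb at 20 to 30 kb and 3.97 at 30 to 50 kb. Farther out the density was 3.12 per Mb at 50 to 100 kb and 1.67 at over 100 kb. These Poisson intervals cover counting error only, and peaks are not replicates.

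Under 1 kb the count is limited by construction, since a peak whose midpoint is that near must be under 2000 bp wide to leave the shared peak untouched, and narrower still the nearer it lies. Such a peak must also share no base with the B6 and B6-TgYF peaks that overlap the shared peak. Gained narrow peaks with midpoints under 1 kb had a median width of 767 bp. Neighbouring peaks in each of the 3 lists were at least 51 bp apart. Taking 0 to 10 kb as a whole, the density was 4.57 per Mb, which is 1.04 times that at 10 to 50 kb (interval 0.990 to 1.10). With the limit at 5 kb, the ratio was 0.945, taken as the density under 5 kb over that at 5 to 50 kb. There the class under 1 kb, limited by construction, weighs more. The ratio was 0.960 when peaks with a B6 or B6-TgYF peak within 500 bp were left out. That rule takes peaks mainly from the near side, as each shared peak overlaps a peak of both lists. A B6 peak lay under 500 bp from 7.70% of the sites and from 0.337% of the gained narrow peaks farther away. With the limit at 20 kb the ratio was 1.08 (interval 1.03 to 1.14), taken as the density under 20 kb over that at 20 to 50 kb. With only the stronger 50% of the B6-TgWT list it was 0.955 (interval 0.841 to 1.08). The ratio's side of 1 thus depended on the setting. The 5 kb limit and the 500 bp rule lower the ratio at least in part by construction.

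For comparison, the 1374 autosomal B6-TgWT peaks that overlapped a B6 but no B6-TgYF peak were densest right beside shared peaks. They numbered 2.34 per Mb under 1 kb (interval 1.99 to 2.74), 0.925 per Mb at 1 to 10 kb and 0.636 at 10 to 50 kb. Gained narrow peaks in the stronger 50% of the list numbered 0.269 per Mb under 1 kb, 1.12 at 1 to 10 kb (interval 1.02 to 1.22) and 0.979 at 10 to 50 kb (interval 0.912 to 1.05), and here the last 2 intervals overlapped. These groups differ by definition. The 1374 peaks had to overlap a B6 peak and had no width limit. Gained narrow peaks had to avoid every B6 and B6-TgYF peak, including those that overlap a shared peak. The contrast under 1 kb is thus partly set by the rule. No test of the difference between these profiles was made.

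**Figure D2:**
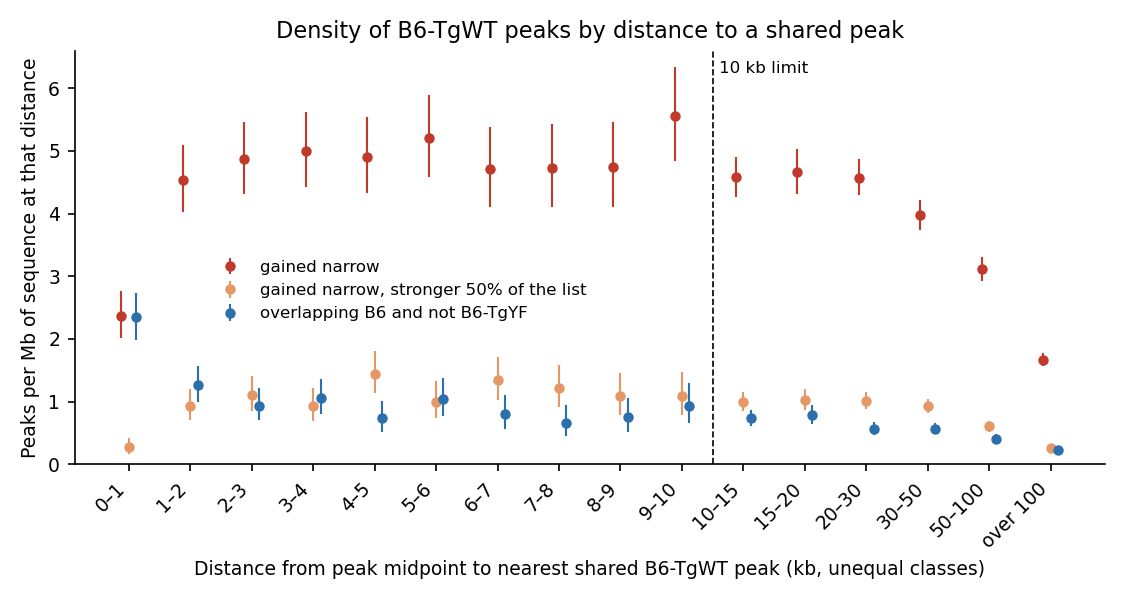
Peaks per Mb of sequence (vertical axis, points with 95% exact Poisson intervals) by distance from the peak midpoint to the nearest shared peak in kb (horizontal axis, classes of unequal size) for all gained narrow peaks, those in the stronger 50% of the list, and B6-TgWT peaks overlapping B6 and not B6-TgYF. Gained narrow peaks lie between 4.53 and 5.55 per Mb from 1 to 10 kb, left of the dashed line, and drop to 1.67 at over 100 kb, whereas the third group is highest under 1 kb, at 2.34. By definition, the third group must overlap a B6 peak and has no width limit.

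Stretches of like length between neighbouring shared peaks were then compared. In these, the density of gained narrow peaks near shared peaks and farther from them had overlapping intervals. The near values include the class under 1 kb, where the count is limited by construction, and are lowered by it. Whether the densities are equal apart from that class was not tested. Under 10 kb from the nearer shared peak, gained narrow peaks numbered 4.80 per Mb in stretches of 5 to 10 kb, 4.75 in those of 10 to 20 kb and 4.93 in those of 20 to 50 kb. In the stretches of 20 to 50 kb it was 5.33 at 10 kb or more from the shared peak. In stretches of 50 to 100 kb the density was 4.58 per Mb under 10 kb and 4.82 at 10 to 50 kb from the shared peak. In stretches of 100 kb or more both values were lower and close to each other, at 3.90 (interval 3.53 to 4.29) and 3.86 (interval 3.68 to 4.05). In each of the 3 length classes that held both, from 20 kb up, the intervals of the near and the more distant sequence overlapped. The shortest stretches, under 5 kb, had 3.30 per Mb (interval 2.38 to 4.46) from 42 peaks.

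**Figure D3:**
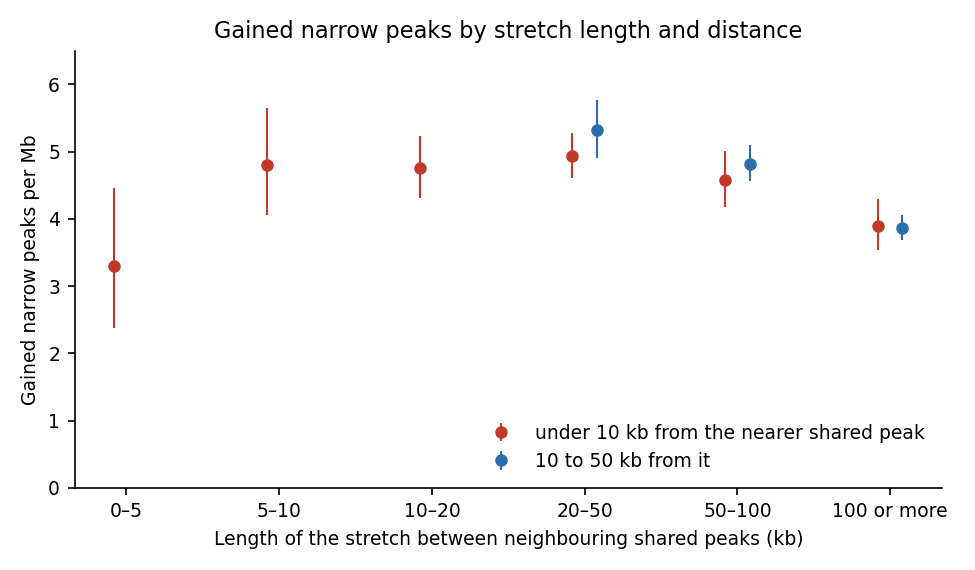
Gained narrow peaks per Mb (vertical axis, points with 95% exact Poisson intervals) by length of the stretch between neighbouring shared peaks in kb (horizontal axis), under 10 kb and 10 to 50 kb from the nearer shared peak. Near and more distant sequence of the same stretches have overlapping intervals, and both are lowest in stretches of 100 kb or more among the classes that have both, at 3.90 and 3.86. The values under 10 kb include the class under 1 kb, where the count is limited by construction.

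Peak properties changed little with the gap. The median fold enrichment was 4.84 at gaps under 1 kb, 5.07 at 1 to 2 kb, 5.01 at 2 to 5 kb and 4.97 at 5 to 10 kb, with overlapping intervals. The share in the stronger 50% of the list was 20.1% under 1 kb and 22.7% at 5 to 10 kb, with Wilson intervals of 16.0 to 24.96 and 20.3 to 25.4. Median width was 1030.5 bp under 1 kb (interval 943 to 1079) and 1125.5 bp at 1 to 2 kb (interval 1057 to 1174). The summit lay on the side of the peak facing the nearest shared peak in 1214 sites (49.8%, interval 47.8 to 51.7), against 49.6% of the gained narrow peaks farther away (interval 48.3 to 50.9). Over all autosomal peaks of the list the share was 51.8% (interval 51.4 to 52.3), and at shared peaks it was 52.2% (interval 51.7 to 52.7). At sites with a gap under 1 kb the share was 54.9% (interval 49.3 to 60.3), which includes both 50% and the share over all peaks. No lean of the sites' summits toward the shared region was detectable beyond counting error.

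The 5 smallest gaps, from 52 to 58 bp, were at sites on chromosome 1 from 51655685 to 51656001 (fold 4.82), chromosome 8 from 79430226 to 79431297 (fold 7.09), chromosome 6 from 93864253 to 93865384 (fold 6.42), chromosome 4 from 14792606 to 14793276 (fold 4.32) and chromosome 2 from 29932020 to 29932372 (fold 4.01). All 5 were weaker than the shared peak beside them, whose B6-TgWT folds were 10.03, 9.16, 11.20, 28.00 and 20.83 in the same order. Over all sites the median fold was 4.98, and over all shared peaks it was 8.04. The chromosome 8 site lay 818 bp from the nearest B6 peak and 1000 bp from the nearest B6-TgYF peak, although only 53 bp separated it from the shared B6-TgWT peak. There the shared peak reached farther toward the site in the B6-TgWT list than in the others.

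At the other end, gaps of 9979 to 9997 bp belonged to sites on chromosome 19 from 44648809 to 44650074 (fold 4.17), chromosome 17 from 43958466 to 43959365 (fold 5.62) and 80901921 to 80902748 (fold 4.6), chromosome 16 from 66575011 to 66575494 (fold 6.66) and chromosome 2 from 173851291 to 173853117 (fold 5.89). Just outside the limit, at gaps of 10000 to 10039 bp, were gained narrow peaks on chromosome 7 from 17670155 to 17671073 (fold 4.50), chromosome 13 from 24493149 to 24493740 (fold 5.88) and 58121356 to 58121730 (fold 3.91), chromosome 3 from 67874898 to 67876499 (fold 5.96) and chromosome 8 from 90197610 to 90198584 (fold 4.63). The folds of these 5 peaks on either side of the limit had overlapping ranges, 4.17 to 6.66 inside and 3.91 to 5.96 outside.

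Shared peaks with such a site nearby were close to the others in fold enrichment and somewhat wider. Within 10 kb of at least 1 site lay 2979 of the 36255 shared peaks (8.22%, interval 7.94 to 8.50). Their median fold enrichment was 8.47 in B6-TgWT, 12.38 in B6 and 9.59 in B6-TgYF, against 8.005, 11.84 and 9.23 at the 33276 shared peaks with no site within 10 kb. The B6 and B6-TgYF folds are those of the peak overlapping the shared peak, the highest where several did. Folds of separate lists set side by side show no change by themselves. In each list the median was slightly higher beside a site, while the intervals of B6-TgWT (8.11 to 8.83 against 7.90 to 8.12), of B6 (11.95 to 12.96 against 11.67 to 12.01) and of B6-TgYF (9.12 to 10.06 against 9.09 to 9.34) overlapped. By decile of B6-TgWT fold enrichment, the share of shared peaks with a site ran between 7.17% and 9.27%, with 7.78% in the weakest and 8.58% in the strongest. By decile of width it was 6.48% for the narrowest shared peaks (interval 5.72 to 7.33) and 9.65% for the widest (interval 8.73 to 10.7), and between 7.67% and 8.85% in the deciles between. The median width was 1294 bp beside a site (interval 1255 to 1329) and 1242 bp otherwise (interval 1231 to 1252).

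Shared peaks lay within 10 kb on both sides of 388 sites (15.9%, interval 14.5 to 17.4). These had the same median fold of 4.98 as the 2052 sites flanked on 1 side only, and were narrower, at 1030.5 bp (interval 949 to 1071) against 1122.5 bp (interval 1095 to 1149). They also more often had another gained peak under 250 bp away, in 13.4% (interval 10.4 to 17.2) against 7.85% (interval 6.76 to 9.09), and sites with such a neighbour had a median width of 688 bp. Without these, a comparison added after the values were seen, the median widths were 1071.5 bp (interval 1017 to 1180) and 1159 bp (interval 1129 to 1188), with overlapping intervals. The nearest shared peak was at lower coordinates for 1196 sites and at higher coordinates for 1244.

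The gaps from the sites to B6 and B6-TgYF peaks are partly set by the rule, since the shared peak under 10 kb away overlaps a peak of each list, and are given as a description. A B6 peak lay under 500 bp away from 188 sites (7.70%) and under 1 kb from 360 (14.8%), and a B6-TgYF peak from 164 (6.72%) and 311 (12.7%). Of the gained narrow peaks at 10 kb or more from a shared peak, 0.337% had a B6 peak and 0.0531% a B6-TgYF peak under 500 bp away. The median gap was 3.8 kb to the nearest B6 peak and 4.11 kb to the nearest B6-TgYF peak. Some B6 peaks nearby were missing from the B6-TgWT list. A B6 peak that no B6-TgWT peak overlapped was within 10 kb of 357 sites (14.6%, interval 13.3 to 16.1), against 10.3% of the gained narrow peaks farther away (interval 9.56 to 11.1) and 19.6% of the shared peaks (interval 19.2 to 20.01). Over all autosomal B6-TgWT peaks that share was 18.0% (interval 17.7 to 18.4), above that at the sites. For 168 sites (6.89%) a B6 peak absent from the B6-TgWT list was nearer than the shared peak. In 52 of these 168 cases the B6-TgYF list held that B6 peak too. Neither count was set beside other peaks, so nothing is read from them.

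Gained peaks also had gained neighbours. Another gained peak lay under 250 bp away from 213 sites (8.73%, interval 7.67 to 9.92), against 8.50% of the gained narrow peaks farther away (interval 7.80 to 9.26) and 1.66% of the wide gained ones. Over all 8930 gained autosomal peaks, of any width and distance, the share was 7.92%. The share at the sites was near this background, whose value lies within their interval. Between 250 and 500 bp there were only 33 such sites and between 500 bp and 1 kb only 12. The median gap to the nearest other gained peak was 59.6 kb. Close spacing was not particular to gained peaks. Of the shared peaks, 10.7% had another shared peak under 250 bp away, and 1.86% had the nearest at 250 to 500 bp.

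**Figure D4:**
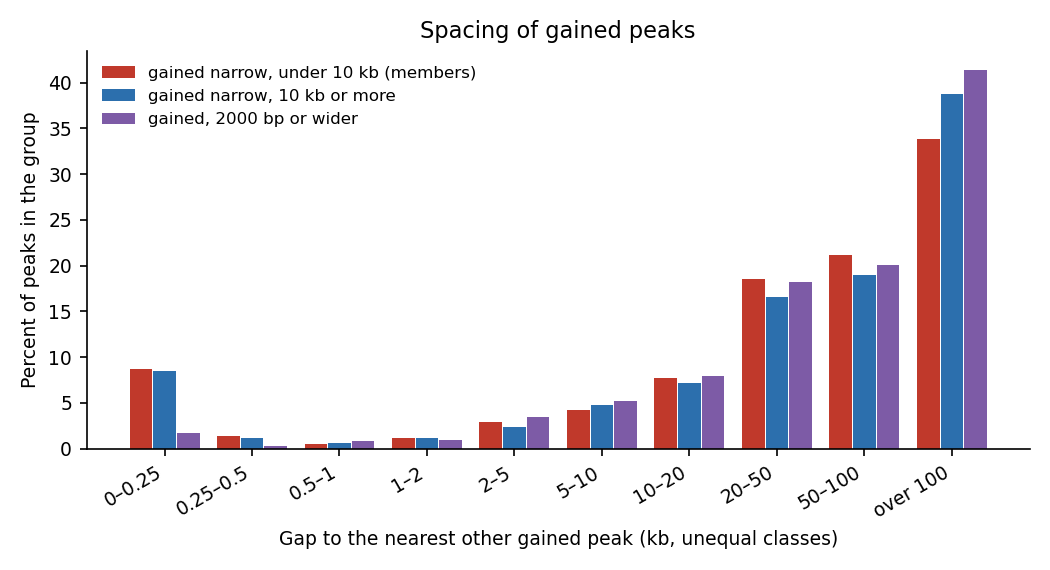
Percent of peaks (vertical axis, bars) by gap to the nearest other gained peak in kb (horizontal axis, classes of unequal size) for the 2440 sites, the gained narrow peaks at 10 kb or more and the wide gained peaks. Both narrow groups have a bar of 8.73% and 8.50% under 0.25 kb, next to 1.35% and 1.20% in the following class, while the wide gained peaks have 1.66%.

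Pairs of sites under 250 bp apart were made up of narrow peaks with separate summits. In the 104 pairs in which both peaks were sites, the gap had a median of 126.5 bp, the summits were 630.5 bp apart in the median (quartiles 512 and 767.5) and the pair spanned 1564.5 bp. In 20 of the 104 pairs the span was 2000 bp or more, so joined into 1 peak it would have passed the width limit. The stronger peak had 1.45 times the fold of the weaker one in the median, and the ratio was under 1.5 in 53 pairs. At 10 kb or more from shared peaks, 230 such pairs had a median summit spacing of 695 bp and a span of 1771.5 bp. Sites in close pairs were narrower than the rest, at 688 against 1150 bp, with median folds of 5.19 and 4.95.

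The pair with the strongest peak lay on chromosome 14 from 71044251 to 71046614, with folds of 15.94 and 5.53 and summits 1001 bp apart. On chromosome 18, 3 sites followed each other from 77498818 to 77501946, with folds of 7.43, 13.75 and 3.98. Further pairs were on chromosome 1 from 173363449 to 173365145 (folds 3.27 and 11.76, summits 437 bp apart) and chromosome 16 from 4545691 to 4547678 (folds 5.97 and 11.71, summits 470 bp apart). In each of these the folds of the neighbouring peaks differed by more than 1.8 times. These pairs were picked for their fold after the values were seen.

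Most shared peaks with a site had only 1, namely 2679, while 276 had 2, 21 had 3 and 3 had 4 within 10 kb. Of the last 3, the first lay on chromosome 2 from 124893614 to 124894805, with folds of 13.38 in B6-TgWT, 6.05 in B6 and 9.07 in B6-TgYF. Its 4 sites lay on 1 side, from 124889417 to 124893490, were 622, 233, 644 and 314 bp wide and had folds of 2.94, 4.09, 3.54 and 5.62. The next shared peak, at 124898918 to 124899864, was within 10 kb of the same 4 sites. The third lay on chromosome 9 from 87215397 to 87216334, a weak peak with folds of 3.32 in B6-TgWT, 5.58 in B6 and 4.23 in B6-TgYF. On its lower side were 3 sites from 87212259 to 87213811 with folds of 8.90, 5.45 and 4.50, and on its upper side was 1 site at 87220400 to 87220985 with a fold of 5.97. Every one of these 8 sites was narrower than the median of all sites.

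**Figure D5:**
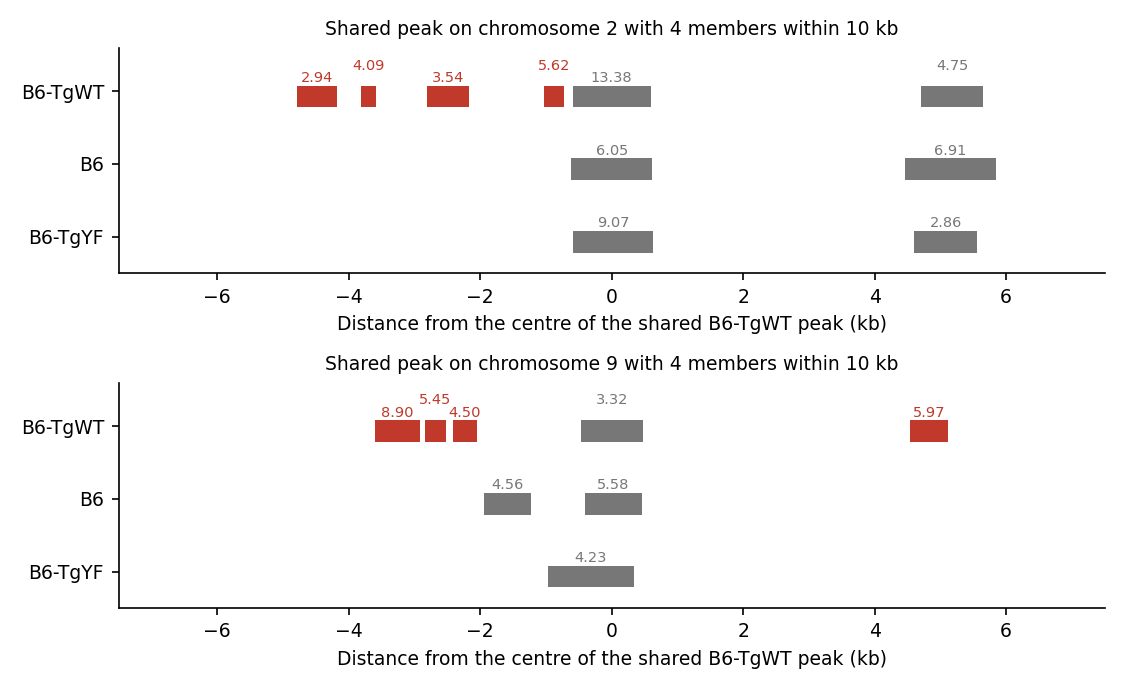
Peaks of the 3 lists (rows) by distance in kb from the centre of a shared B6-TgWT peak (horizontal axis, drawn to scale), with the deposited fold enrichment over each peak, for the shared peaks on chromosome 2 (fold 13.38) and chromosome 9 (fold 3.32). The sites, in red, are in the B6-TgWT row only, with 4 on 1 side of the chromosome 2 peak and 3 and 1 on the sides of the chromosome 9 peak.

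The sites were spread over all 19 autosomes, from 71 on chromosome 19 and 73 on chromosome 14 to 202 on chromosome 11 and 230 on chromosome 2. Per Mb of sequence under 10 kb from a shared peak, the density was lowest on chromosome 3, at 3.65 (exact Poisson interval 2.99 to 4.42), and highest on chromosome 16, at 5.74 (interval 4.73 to 6.91). Chromosome 11 had 5.73 per Mb and chromosomes 17 and 2 had 5.63. Gained narrow peaks at 10 kb or more were less dense on each of the 19 autosomes, with 2.36 to 4.49 per Mb of the sequence there, which takes in the long stretches without shared peaks. The ratio of both densities ran from 1.21 on chromosome 19 to 1.98 on chromosome 7. For these values peaks were counted by the gap between peak edges, and sequence by position. Relative to the counts by midpoint given above, this raises the near densities and the ratios and lowers the distant densities.

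Along the chromosomes, which in the mouse are numbered from the centromere, the sites were most frequent near the distal end. With each autosome divided from its first to its last peak into 5 equal segments, the distal segment held 28.0% of the sites (interval 26.3 to 29.8), and the segment at the centromere 15.8% (interval 14.4 to 17.3). Shared peaks had nearly the same shares, 27.6% and 15.6%. As each site must lie under 10 kb from a shared peak, its place along the chromosome is partly set by the rule. Gained narrow peaks at 10 kb or more were spread more evenly, with 22.8% (interval 21.7 to 23.9) and 17.3% (interval 16.3 to 18.3). The split by distance to shared peaks bears on this difference too, so these shares are given as a description.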

How the data were processed

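The authors deposited 1 H3K4me3 peak list per line, which the labels assign to both ChIP libraries and the input of that line. Build mm9 and the programs MACS2, BWA, Bowtie2 and CASAVA are listed in the submitters' processing notes. Versions, cutoffs and the way replicates were combined are not stated in the labels or files. The lists have no header, and their 10 columns were read in the usual order of MACS2 peak files. The deposited fold enrichment is the caller's ratio to background. The deposited −log10 p and −log10 q values are the caller's too, and the deposited score is 10 times the −log10 p. The summit offset was used as deposited.

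Overlap meant at least 1 shared base, and gaps were counted in bases between peak edges. The B6 or B6-TgYF fold given for a shared peak is the highest among the peaks of that list overlapping it. Percentiles of fold enrichment were taken over the full B6-TgWT list. Sequence at each distance was counted between the first and last peak of each chromosome. Shares have 95% Wilson intervals, medians binomial and densities exact Poisson intervals. No p-value was computed, as there is 1 list per line.

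The sites, groups and comparisons were chosen with earlier results of these data known. Regions were named by rule: the 10 strongest sites, the 5 with the smallest and largest gaps, the 5 just outside 10 kb, the 3 on either side of the width limit, and the 3 shared peaks with the most sites. Alternatives were other gap and width limits, other overlap rules, stronger peaks only, a common lowest −log10 p of 12 and −log10 q as strength. Close pairs were studied after the data were seen. The code for the classes was run on simulated lists without noise, built by the same definitions, where 100% of 6835 sites were recovered. This checks the code only, not how well real gained and shared peaks are told apart. No mm9 genome or annotation was used, so sequences, motifs and genes were not analysed here. Calculations used Python 3.11.15 with pandas 2.3.3, numpy 2.4.6 and scipy 1.17.1, and figures matplotlib 3.10.9.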

Additional observations from a re-analysis of the deposited data

How the results depend on the processing

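Recomputing 8 results gave 65 alternative values, of which 43 stayed inside the interval of the value reported (or, for the number of sites, within a factor of 1.5) and 22 moved out of it. The share of summits facing the shared peak stayed within its interval under all 8 settings that gave it. With a gap limit of 5 kb there were 1405 sites, 17.4% of the gained narrow peaks, the ratio of densities was 0.945 and 4.22% of shared peaks had a site. With 20 kb there were 3860 sites (47.7%), the ratio of densities was 1.08 and 15.9% of shared peaks had a site. Without the width limit the median fold was 5.18, the share in the stronger 50% was 26.7%, the median width was 1165.5 bp and 8.94% of shared peaks had a site. Leaving out peaks within 500 bp of a B6 or B6-TgYF peak gave 28.5% near shared peaks, a ratio of 0.960 and 7.38% of shared peaks with a site. With only the stronger 50% of the B6-TgWT list there were 367 sites (21.7%), with a median fold of 8.07, a median width of 1513 bp, a ratio of 0.955, 2.12% of shared peaks with a site and, by construction, 100% in the stronger 50%. Joining gained peaks under 250 bp apart, a setting chosen after seeing the data, gave a median width of 1166 bp and 2306 sites. The limits and strength settings change the set by construction. So does the 500 bp rule, which takes out mainly gained peaks beside shared ones, since each shared peak overlaps a peak of both other lists. Ranking by −log10 q was run only for the share in the stronger 50%, as its median has another unit. No paired analysis was possible because the replicates of a line share 1 list, and for the same reason no replicate could be left out. Unknown depth limits every call of absence.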

Other observations

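Chromosome X was outside the rule. By the same rule it held 24 gained narrow peaks under 10 kb from a shared peak and 91 at 10 kb or more. Per Mb of sequence under 10 kb from a shared peak, this came to 1.77 (95% exact Poisson interval 1.14 to 2.64), below the lowest autosome, chromosome 3, at 3.65 (interval 2.99 to 4.42). At 10 kb or more the density on X was 0.621 per Mb (interval 0.4997 to 0.762), also below the lowest autosome, at 2.36. On X, as on the single autosomes, peaks were counted by the gap between peak edges and not by midpoint. The density of all peaks on X is not given. Whether the lower values on X are particular to gained peaks was not tested.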
